A study of Mus musculus with 7 samples.

Results

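Claudins and other tight junction genes were followed in sorted Paneth cells (PCs) of mice injected with TNF (tumour necrosis factor). The set was a fixed list of 31 mouse genes, 19 claudins and 12 other junction genes, and all 31 were found among the 55414 gene identifiers of the count table. PCs sit at the crypt bottom of the small intestine and release granules with antimicrobial proteins. The control group was 3 libraries from C57BL/6J mice given phosphate-buffered saline (PBS), and the treated group was 4 libraries from C57BL/6J mice given TNF, with each library made from the sorted PCs of a different animal 15 h after the injection. The labels give no deletion, transgene or further agent for either group, and the sources used here state neither the dose, nor the age of the mice, nor the part of the small intestine taken.

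Tight junctions seal the gap between neighbouring epithelial cells near their apical edge. Claudins span the membrane several times and join into strands. Some claudins mainly tighten the seal, while others, such as claudin-2 and claudin-15, form pores for small cations. Occludin and its relatives lie in the same strands, junctional adhesion molecules (JAMs) lie beside them, and zonula occludens (ZO) scaffolds tie the strands to actin. In the intestine, claudin composition differs between crypt and villus and along the length of the gut, and TNF is known there as a cytokine that loosens the barrier.

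The libraries held 15511455 to 19193721 counts, and the first principal component, with 78.3% of the variance, separated the PBS from the TNF libraries. Levels below are CPM (counts scaled to 1000000 per library) on TMM-scaled library sizes (TMM, trimmed mean of M-values), and a gene is called when its adjusted p was under 0.05 in edgeR's quasi-likelihood test with Benjamini-Hochberg adjustment over 14329 genes. Summed levels of 6 PC markers, mostly those of Lyz1 and Defa24, overlapped between the groups, at 164096 to 263606 CPM after PBS and 158025 to 283699 CPM after TNF. Of these 6 markers, Mmp7 was called higher (log2 fold change 0.88), Clps was called lower (-2.27) and 4 were not called. Among markers of other cell types, all 6 tuft cell markers were called lower, with a summed level of 1349 to 2236 CPM after PBS and 264 to 651 CPM after TNF. The summed level of 7 enterocyte markers was 161 to 249 CPM after PBS and 14.6 to 20.2 CPM after TNF, and of the 5 markers called lower, Apoa1, Apoa4 and Sis passed the filter on low counts only through the PBS libraries. For 4 stem cell markers, all called lower, it was 2407 to 3533 CPM after PBS and 958 to 1589 CPM after TNF, and for 6 goblet cell markers, of which 4 were called lower, it was 10434 to 19241 CPM after PBS and 8770 to 9839 CPM after TNF. Further lists stood at low levels: 6 enteroendocrine markers summed to 14.4 to 69.0 CPM after PBS and 8.09 to 17.7 CPM after TNF, 6 stromal markers to 1.91 to 2.44 CPM and 0.472 to 1.12 CPM, and 6 leukocyte markers to 24.1 to 31.9 CPM and 18.1 to 28.2 CPM. Among the leukocyte markers, Cd3e had 0 counts in every library, Ptprc was called lower (log2 fold change -0.95), and S100a9 was called higher, with 0 counts in the PBS libraries and 399 counts in the TNF libraries, a level at least 106-fold higher against the floor of 3 counts over the PBS group. Markers of intestinal segments also differed: the summed level of 8 duodenal and jejunal genes was 178 to 216 CPM after PBS and 33.5 to 45.7 CPM after TNF, with 5 of 6 tested genes called lower, and that of 10 ileal genes was 27.6 to 45.3 CPM after PBS and 68.7 to 75.8 CPM after TNF. The ileal genes did not move as one: Hoxb9, Hoxb8 and Slc51b were called higher and Osr2 lower. Of the other 6 ileal genes, not tested, Cubn had 136 counts after PBS and 0 after TNF, Slc51a 27 and 0, Fabp6 39 and 2, Hoxa10 7 and 0, Slc10a2 0 and 34, and Fgf15 2 and 5. Among the called markers named or counted here, Ascl2, Zg16, Pdx1, S100a9 and Slc51b also passed the filter through 1 group alone, and the counts of called markers are a description. The part of these differences in the junction genes was not tested. In such bulk libraries, fewer cells of a type and less RNA per cell cannot be told apart.

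After TNF, the mRNA of some claudins rose steeply while that of others fell. Cldn4, Cldn2, Cldn7, Cldn12 and Cldn23 rose at least 2-fold, as did F11r and Lsr, and Cldn15, Cldn9, Cldn14, Cldn8 and Cldn6 fell at least 2-fold. Of the 31 genes, 21 had enough counts to be tested, 12 were called higher, 7 lower and 2 not called, and 10 were not tested. Over all tested genes, 59.6% were called, 29.5% higher and 30.1% lower, so that a call by itself was common in this comparison. A change of at least 2-fold was called for 12 of the 21 genes, 7 higher and 5 lower, against 31.6% of all tested genes. The CPM values of the groups did not overlap for 18 of the 21 genes, against 60.7% of all tested genes. The median log2 fold change was 0.36 for the 21 genes and 0.0017 for all tested genes. Cldn6, Cldn8, Cldn9 and Cldn14, 4 of the 5 genes that fell at least 2-fold, passed the filter on low counts only through the PBS libraries, where they were high, and counts over the tested genes are therefore a description. Scaled by total counts alone, the split of calls was 8 higher and 8 lower, beside a shift of the median of all genes to -0.16. In that fit, 3142 of all 14329 tested genes were called higher and 4614 lower.

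**Figure D1:**
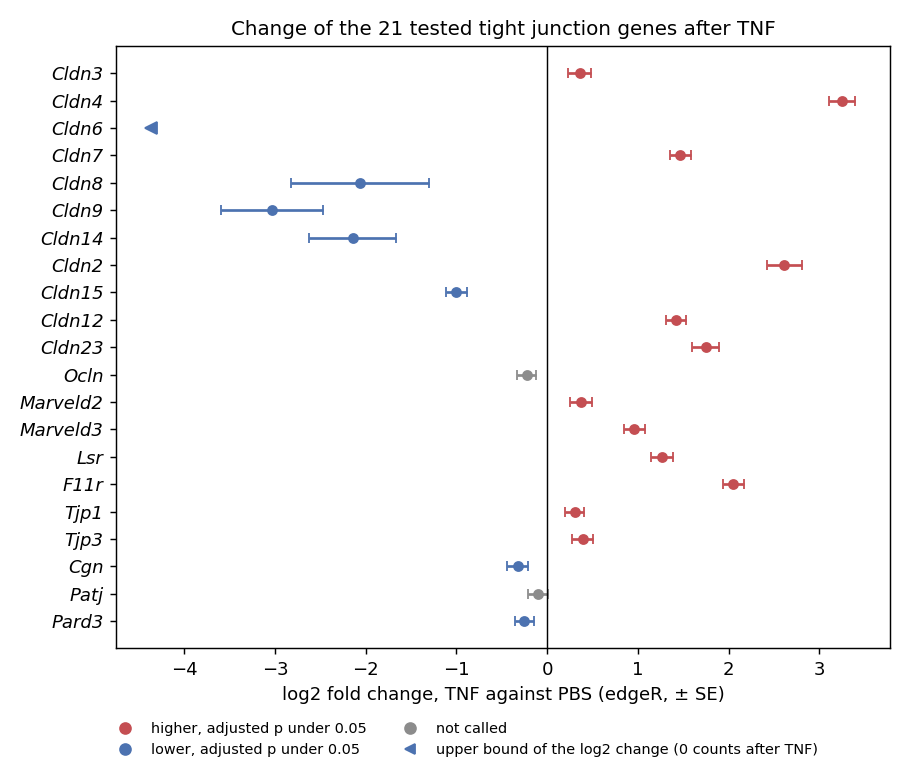
Log2 fold change, TNF against PBS, of the 21 tested tight junction genes, with the standard error (SE) as bars and colours for the call. Cldn4 lies farthest to the right at 3.25, and the arrow of Cldn6 marks the upper bound of its log2 change, since it had 0 counts after TNF.

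Among the claudins grouped here as mainly barrier-forming, Cldn4 gave the largest rise. Claudin-4 is a sealing claudin that is low in the small intestine and more abundant in the colon. Its level was 104, 79.0 and 88.9 CPM in the PBS libraries and 805, 847, 995 and 803 CPM in the TNF libraries. Every TNF library lay far above every PBS library. TNF raised Cldn4 by 3.25 ± 0.15 (SE) on the log2 scale, with an edgeR adjusted p of 7.77e-10, the largest rise among the 31 genes.

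Cldn7, a claudin found along the whole lateral membrane of intestinal cells, was at 281, 261 and 265 CPM after PBS and at 691, 786, 697 and 803 CPM after TNF. The groups did not overlap, and the spread within each was small beside the gap. Its log2 fold change was 1.47 ± 0.12, with an edgeR adjusted p of 1.39e-07.

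Cldn3, a sealing claudin and the genomic neighbour of Cldn4, moved much less. Its level was 227, 208 and 170 CPM after PBS and 221, 260, 290 and 266 CPM after TNF. The groups overlapped, since the first PBS library was above the lowest TNF library. Its log2 fold change of 0.36 ± 0.13 had an edgeR adjusted p of 0.0243, and Cldn3 was no longer called on leaving out PBS replicate 2, PBS replicate 3 or TNF replicate 3 (adjusted p of 0.0532, 0.109 and 0.0757) or with scaling by total counts alone, where the log2 change was 0.21. Of the exonic bases of Cldn3, 72% overlap the antisense gene Wbscr25, which had 89 counts in all libraries against 28801 for Cldn3. The sources used here do not say whether counting used strand, so reads of the pair cannot be told apart.

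The remaining tested barrier claudins, Cldn9, Cldn14, Cldn8 and Cldn6, were scarce and lower after TNF. Since they entered the test through the PBS libraries alone, their adjusted p values describe these genes and are no independent sign of a fall. Cldn9, known for its role in the inner ear, was at 2.47, 2.60 and 4.03 CPM after PBS and at 0.224, 0.825, 0.214 and 0.196 CPM after TNF. All PBS libraries were above all TNF libraries, with TNF replicate 2 apart from the other TNF libraries. Cldn9 fell with a log2 fold change of -3.03 ± 0.56 and an edgeR adjusted p of 0.000345. Without TNF replicate 2 the log2 fold change was -3.79.

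Cldn14, a claudin of the inner ear and the kidney, was at 2.66, 3.41 and 2.86 CPM after PBS and at 0.784, 0.530, 1.07 and 0.262 CPM after TNF. The groups did not overlap, and the log2 fold change was -2.14 ± 0.48, with an edgeR adjusted p of 0.00154. Cldn8, a claudin of the distal nephron and the colon, was at 1.30, 0.916 and 0.742 CPM after PBS and at 0.112, 0.472, 0.321 and 0 CPM after TNF. The groups did not overlap here either, but the counts were few, with 53 in all PBS and 16 in all TNF libraries. The log2 fold change of Cldn8 was -2.06 ± 0.76, with an edgeR adjusted p of 0.0313, and Cldn8 was not called on leaving out PBS replicate 1, PBS replicate 2 or TNF replicate 1 (adjusted p of 0.120, 0.0733 and 0.0524).

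Cldn6, a claudin of embryonic epithelia, was at 1.05, 0.865 and 0.795 CPM in the PBS libraries and had 0 counts in all 4 TNF libraries. Its 49 counts after PBS against 0 after TNF correspond to a level at least 20.5-fold lower after TNF, computed against a floor of 3 counts over the TNF group, and the edgeR adjusted p was 0.000332. Cldn6 and Cldn9 are neighbours on chromosome 17 (GRCm39, chr17:23898223-23901420 on the plus strand and chr17:23901558-23903000 on the minus strand). Their annotated ends lie 137 bases apart, and both fell.

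**Figure D2:**
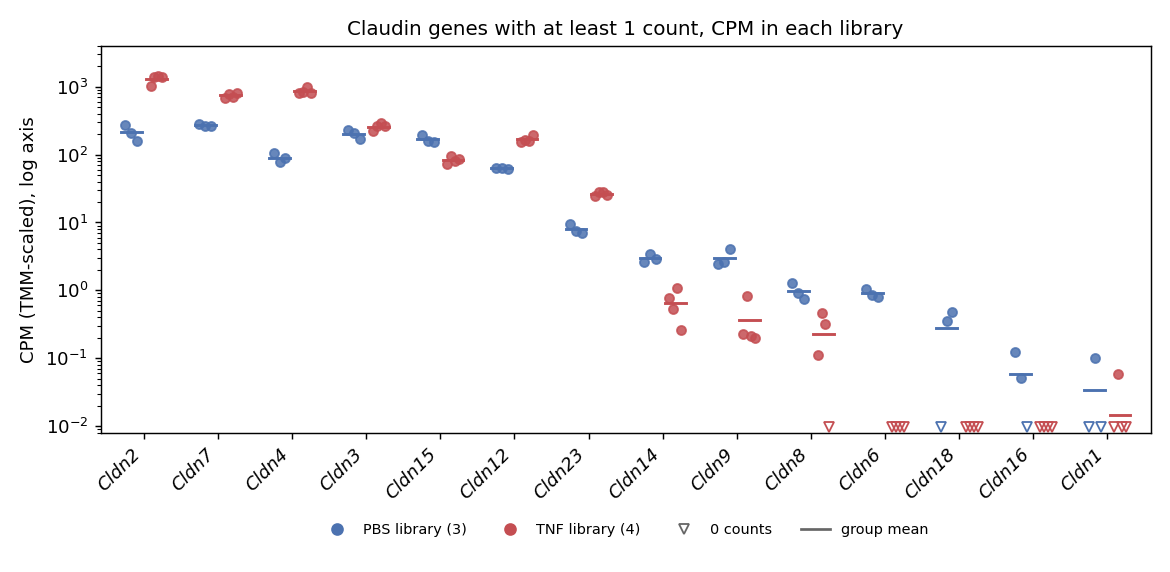
CPM of the 14 claudins with at least 1 count, on a log axis, with a point for each library, bars for the group means and open triangles for libraries with 0 counts. The 4 TNF points of Cldn2, Cldn7, Cldn4, Cldn12 and Cldn23 lie above all PBS points, and those of Cldn15, Cldn14, Cldn9, Cldn8 and Cldn6 lie below them.

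Both tested pore-forming claudins changed, in opposite directions. Cldn2, which encodes a cation and water channel typical of crypts, was at 271, 209 and 159 CPM after PBS and at 1014, 1404, 1420 and 1377 CPM after TNF. The lowest TNF library was far above the highest PBS library, although TNF replicate 1 stood apart from the other TNF libraries. For Cldn2 the log2 fold change was 2.61 ± 0.20, with an edgeR adjusted p of 1.09e-07.

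Cldn15, which encodes a sodium pore of the small intestine, was at 192, 157 and 156 CPM after PBS and at 72.9, 94.3, 81.5 and 87.4 CPM after TNF. Every TNF library was below every PBS library. The log2 fold change was -1.0 ± 0.12, with an edgeR adjusted p of 5.68e-06. The ratio of Cldn2 to Cldn15 counts within a library does not depend on the scaling of libraries, and it was chosen after the values were seen. It was 1.41, 1.33 and 1.02 in the PBS libraries and 13.9, 14.9, 17.4 and 15.7 in the TNF libraries. Of the other channel claudins, Cldn10 had 0 counts and Cldn16, a kidney claudin, had 3 counts in all.

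Cldn12, which lacks the carboxy-terminal motif by which other claudins bind ZO proteins, was at 63.4, 63.7 and 60.6 CPM after PBS and at 152, 165, 158 and 194 CPM after TNF. The PBS libraries were nearly equal and all far below the TNF libraries, with a log2 fold change of 1.42 ± 0.11 and an edgeR adjusted p of 1.24e-07. Cldn23, a less studied claudin, was at 9.46, 7.48 and 7.0 CPM after PBS and at 24.6, 28.5, 28.2 and 25.5 CPM after TNF. The groups did not overlap, and the log2 fold change was 1.74 ± 0.15, with an edgeR adjusted p of 3.83e-07.

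Of the 19 claudins, 5 had 0 counts in every library. These were Cldn5, the claudin of endothelial cells, Cldn10, Cldn11, known from myelin and the testis, Cldn19, which pairs with Cldn16 in the kidney, and Cldn22, whose exons lie wholly within those of Wwc2 on the opposite strand. A count of 0 in all 7 libraries allows a level of up to 0.0243 CPM, for counting error only. This limit is uncertain for Cldn22, whose reads may not have been assigned. It is also uncertain for Cldn19, of whose exonic bases 21.6% overlap Gm12927 on the opposite strand. A further 3 claudins had too few counts to be tested. Cldn1, the main claudin of the skin barrier, had 2 counts in PBS replicate 2 and 1 count in TNF replicate 2. Cldn18, a claudin of stomach and lung, had 0, 7 and 9 counts in the PBS libraries and 0 in the TNF libraries, and Cldn16 had 2, 1 and 0 counts in the PBS libraries and 0 in the TNF libraries. With no filter on low counts, Cldn18 was called lower with an edgeR adjusted p of 0.0162, although its groups overlapped. The adjusted p values of this fit cannot be set beside those of the main fit. Cldn4 had a log2 fold change of 3.25 in both, with an edgeR adjusted p of 4.59e-112 without the filter and 7.77e-10 in the main fit. The call of Cldn18 is therefore a description. The summed level of 6 endothelial markers was 2.60 to 7.23 CPM after PBS and 1.77 to 2.03 CPM after TNF. Most of this sum was Tek, which was at 2.97, 7.02 and 1.91 CPM after PBS and at 1.46, 1.53, 1.55 and 1.18 CPM after TNF and was called lower (log2 fold change -1.47 ± 0.44, edgeR adjusted p 0.00994). Kdr had 0 counts in every library, Cdh5 and Eng had 1 and 2 counts in all, Pecam1 had 9, and Egfl7 had 18 after PBS and 26 after TNF.

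Beyond the 31 genes, 11 further claudin and claudin-domain genes were looked up, and 7 of them had 0 counts in every library. Cldn20, Cldn34c1 and Cldnd2 had too few counts to be tested. Cldnd1, the only one tested, averaged 30.1 ± 3.43 CPM in the PBS libraries (SD, n = 3) and 36.9 ± 5.37 CPM in the TNF libraries (SD, n = 4). Its groups overlapped, and it was not called (log2 fold change 0.30 ± 0.14, edgeR adjusted p 0.0824).

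To set claudins beside each other, CPM was divided by the length of the merged exons in kilobases (kb). The summed claudin level was 554, 479 and 442 CPM per kb in the PBS libraries and 1303, 1530, 1590 and 1508 CPM per kb in the TNF libraries. After PBS the order was Cldn3 at 160 ± 23.0 CPM per kb, Cldn7 at 127 ± 5.10, Cldn15 at 77.3 ± 9.54, Cldn2 at 62.0 ± 16.4 and Cldn4 at 50.0 ± 7.04 CPM per kb (SD, n = 3). The values of Cldn15 and Cldn2 overlapped between libraries, although Cldn15 was above Cldn2 within each of the 3 PBS libraries. The values of Cldn2 and Cldn4 also overlapped, and their order was not the same in all PBS libraries. After TNF the order was Cldn4 at 475 ± 49.8 CPM per kb, Cldn2 at 379 ± 56.4, Cldn7 at 352 ± 27.6, Cldn3 at 206 ± 22.6 and Cldn15 at 38.6 ± 4.18 CPM per kb (SD, n = 4). The values of Cldn2 and Cldn7 overlapped between libraries.

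As a share of the summed claudin level per kb, Cldn4 was at 10.2% ± 1.02 after PBS and 32.1% ± 2.54 after TNF, and Cldn2 at 12.5% ± 1.91 after PBS and 25.5% ± 1.92 after TNF. Cldn3 was at 32.5% ± 1.90 after PBS and 13.9% ± 0.475 after TNF. Cldn15 was at 15.7% ± 0.618 after PBS and 2.60% ± 0.199 after TNF, while the share of Cldn7 was 26.1% ± 2.17 after PBS and 23.9% ± 2.11 after TNF (SD, n = 3 and 4). Libraries of the groups overlapped for the share of Cldn7 and not for the shares of Cldn4, Cldn2, Cldn3 and Cldn15. These shares are a description. The order depends on the length used: with the length of the canonical transcript, Cldn7 was first in both groups, at 34.4% after PBS and 32.0% after TNF.

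**Figure D3:**
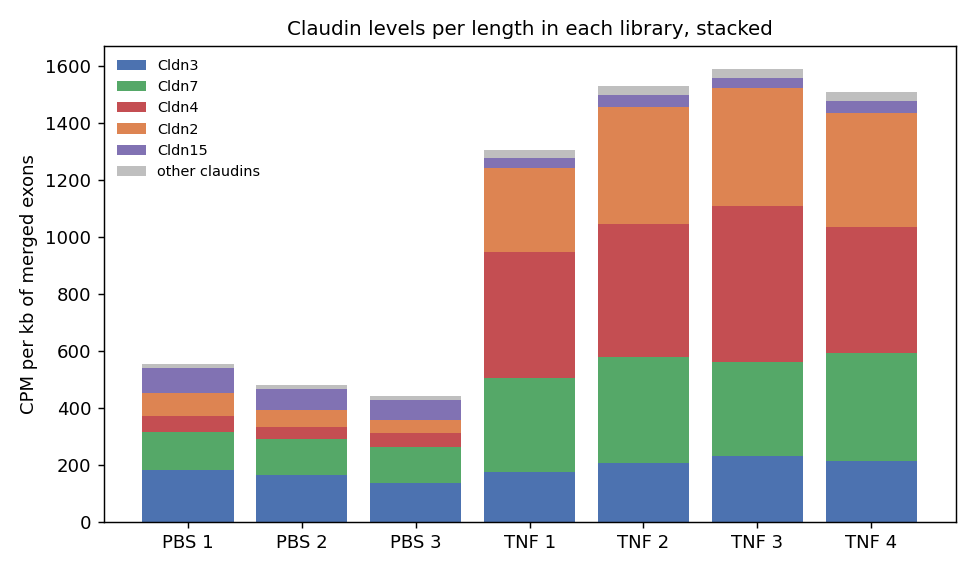
Claudin levels in CPM per kb of merged exons, stacked for each of the 3 PBS and 4 TNF libraries. The Cldn4 and Cldn2 parts of the columns are several times higher in the TNF libraries, and the Cldn15 part is lower.

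Cldn4 and Cldn3 lie on chromosome 5 in opposite directions, 39279 bases apart (GRCm39, chr5:134973973-134975788 on the minus strand and chr5:135015068-135016326 on the plus strand). The ratio of Cldn4 to Cldn3 counts, chosen after the values were seen, was 0.459, 0.380 and 0.522 in the PBS libraries and 3.64, 3.26, 3.43 and 3.02 in the TNF libraries. The 250 bases before the start of each gene are shown for this pair of neighbours and for the pair of channel claudins that moved apart, as RefSeq gives them for GRCm38.p6, 5′ to 3′ on the strand of the gene. Capitals mark matches, on either strand, to AP-1 (TGANTCA), a GC box (GGGCGG) or a TATA box (TATAAA), and no 2 of the marked matches overlap.
Cldn4, chr5:134946935-134947184, minus strand: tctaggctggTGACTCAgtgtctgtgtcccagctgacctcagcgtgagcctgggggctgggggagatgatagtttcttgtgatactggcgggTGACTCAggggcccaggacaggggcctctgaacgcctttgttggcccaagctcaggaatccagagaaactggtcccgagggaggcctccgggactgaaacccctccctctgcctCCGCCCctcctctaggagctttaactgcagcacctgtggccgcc
Cldn3, chr5:134985964-134986213, plus strand: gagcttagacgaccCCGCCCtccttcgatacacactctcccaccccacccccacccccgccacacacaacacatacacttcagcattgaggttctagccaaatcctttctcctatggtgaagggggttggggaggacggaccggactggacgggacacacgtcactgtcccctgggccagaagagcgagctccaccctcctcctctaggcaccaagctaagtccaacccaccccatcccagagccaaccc
Cldn2, chrX:139800558-139800807, plus strand: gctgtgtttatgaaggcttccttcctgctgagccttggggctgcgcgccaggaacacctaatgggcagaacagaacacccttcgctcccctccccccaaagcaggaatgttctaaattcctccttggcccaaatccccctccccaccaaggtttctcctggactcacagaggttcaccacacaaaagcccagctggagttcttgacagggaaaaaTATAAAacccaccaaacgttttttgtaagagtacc
Cldn15, chr5:136967619-136967868, plus strand: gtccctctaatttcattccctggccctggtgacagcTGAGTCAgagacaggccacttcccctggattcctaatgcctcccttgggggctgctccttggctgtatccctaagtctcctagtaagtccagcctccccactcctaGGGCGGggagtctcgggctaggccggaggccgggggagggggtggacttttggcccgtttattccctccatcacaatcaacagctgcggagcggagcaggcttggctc
The Cldn4 window held an AP-1 match at -240 to -234 and another at -158 to -152, and a GC box at -44 to -39, counted from the start of the gene. The Cldn3 window held a GC box at -236 to -231, the Cldn2 window a TATA box at -35 to -30, and the Cldn15 window an AP-1 match at -214 to -208 and a GC box at -108 to -103. A match of these letters is a description of the sequence and not a site of binding.

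RefSeq promoters were found for 25 of the 31 genes, 39 promoters in all. AP-1 letters stood in 5 of the 39, those of Cldn4, Cldn15, F11r, Lsr and Patj, and in 6.75% of all 32851 promoters of the same length. A GC box stood in 22 of the 39 and in 32.7% of all promoters. A TATA box stood in 4 of the 39 and in 12.4% of all promoters, the letters TTCNNNGAA, read by STAT factors, in 4 of the 39 and in 7.02%, and the NF-kB motif in 3 of the 39 and in 7.25%. None of the 15 promoters of genes called higher held the NF-kB motif, which says only that these letters are not in this window.

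Occludin and its relatives did not move together. Ocln, which encodes the first strand protein to be described, was at 112, 113 and 106 CPM after PBS and at 84.0, 90.1, 97.9 and 106 CPM after TNF. The highest TNF library reached the lowest PBS library, and the groups overlapped. Ocln was not called, with a log2 fold change of -0.22 ± 0.10 and an edgeR adjusted p of 0.0762. It was called lower without TNF replicate 4, with a log2 change of -0.29 and an adjusted p of 0.0271, and with scaling by total counts alone, with a log2 change of -0.40.

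Lsr encodes angulin-1, which draws tricellulin to the points where 3 cells meet. Its level was 208, 184 and 161 CPM after PBS and 403, 439, 444 and 483 CPM after TNF. All TNF libraries were above all PBS libraries, and the log2 fold change was 1.26 ± 0.12, with an edgeR adjusted p of 8.99e-07. Of the exonic bases of Lsr, 33.0% overlap the antisense gene Gm4673, which had 239 counts against 40329 for Lsr.

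Marveld2, the gene of tricellulin, had a mean of 30.2 ± 4.20 CPM after PBS and 39.0 ± 1.90 CPM after TNF and was called higher (log2 fold change 0.37 ± 0.12, edgeR adjusted p 0.0172). Without PBS replicate 3 it was not called, at an adjusted p of 0.0905, nor with scaling by total counts alone. Marveld3, another relative of occludin, had a mean of 36.8 ± 4.61 CPM after PBS and 71.5 ± 5.71 CPM after TNF, with a log2 fold change of 0.96 ± 0.12 and an edgeR adjusted p of 9.47e-06.

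Among the JAMs, F11r, the gene of JAM-A, an adhesion molecule of epithelial tight junctions, was at 100, 102 and 86.1 CPM after PBS and at 359, 407, 392 and 435 CPM after TNF. The TNF libraries were all several times above the PBS libraries. F11r rose with a log2 fold change of 2.05 ± 0.12 and an edgeR adjusted p of 7.48e-09, the third largest rise among the 31 genes after Cldn4 and Cldn2. Jam2, known from endothelial cells, had 1, 11 and 6 counts in the PBS libraries and 0 in all TNF libraries. This corresponds to a level at least 7.55-fold lower after TNF against the floor of 3 counts, and Jam2 was too low to be tested with the filter on low counts. Jam2 was called lower, with an edgeR adjusted p of 0.00987, when no filter on low counts was used. As for Cldn18, this value cannot be set beside those of the main fit and is a description. Jam2 shares 4.38% of its exonic bases with Atp5pf on the opposite strand, which had 3707 counts against 18 for Jam2. Since the use of strand is not given, reads of this pair cannot be told apart. Jam3 had 0 counts in every library.

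The cytoplasmic plaque genes moved little, with log2 fold changes from -0.32 to 0.39. Tjp1, the gene of the scaffold ZO-1, was at 141, 119 and 112 CPM after PBS and at 153, 143, 163 and 153 CPM after TNF. The groups did not overlap, but PBS replicate 1 came close to the lowest TNF library. The log2 fold change was 0.30 ± 0.11, with an edgeR adjusted p of 0.0257, and Tjp1 was not called on leaving out PBS replicate 2, PBS replicate 3 or TNF replicate 3 (adjusted p of 0.0944, 0.104 and 0.0694) or with scaling by total counts alone.

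Tjp3, the gene of ZO-3, had a mean of 144 ± 7.18 CPM after PBS and 189 ± 21.2 CPM after TNF (edgeR log2 change 0.39 ± 0.11, adjusted p 0.00759). With scaling by total counts alone, Tjp3 was not called. Cgn, the gene of cingulin, which joins the plaque to the cytoskeleton, had a mean of 66.4 ± 4.07 CPM after PBS and 53.0 ± 6.52 CPM after TNF (edgeR log2 change -0.32 ± 0.11, adjusted p 0.0252). Leaving out PBS replicate 1, PBS replicate 2, TNF replicate 2 or TNF replicate 4 ended the call of Cgn, at adjusted p of 0.0793, 0.0898, 0.0736 and 0.0520.

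Patj, a scaffold of the Crumbs polarity complex, had a mean of 96.3 ± 2.37 CPM after PBS and 89.7 ± 9.93 CPM after TNF and was not called (log2 fold change -0.10 ± 0.11, edgeR adjusted p 0.426). Pard3, a scaffold of the PAR polarity complex, had a mean of 92.4 ± 4.39 CPM after PBS and 77.7 ± 6.15 CPM after TNF (edgeR log2 change -0.25 ± 0.10, adjusted p 0.0439). The call of Pard3 was lost on leaving out any PBS library or TNF replicate 1, 2 or 3, with adjusted p from 0.0539 to 0.121. It was also lost with no filter on low counts, where the log2 change was -0.25.

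**Figure D4:**
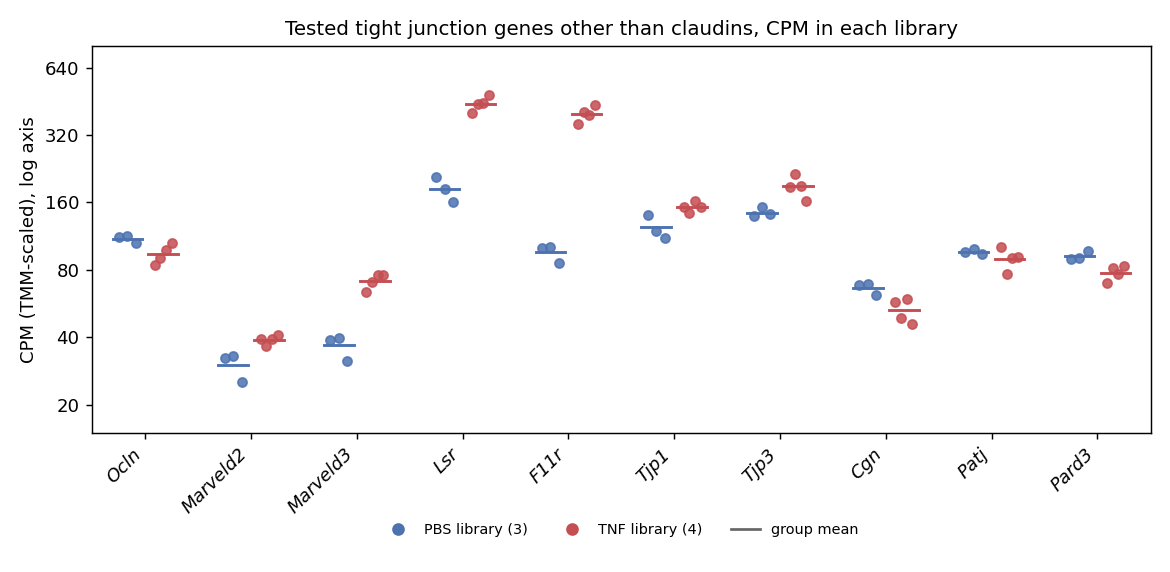
CPM of the 10 tested junction genes other than claudins, on a log axis, with a point for each library and bars for the group means. Lsr and F11r show the widest gaps between the PBS and TNF points, and the points of Ocln and Patj overlap.

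A wider list of 87 junction genes outside the set, drawn up by role, held 70 tested genes, of which 37 were called higher, 13 lower and 20 not called, with a median log2 fold change of 0.34. Of 21 tested plaque and polarity genes, 8 were called higher and 3 lower. Crb3 and Pard6b, parts of the Crumbs and PAR complexes, rose with log2 fold changes of 1.24 and 1.29, and Amotl1, an angiomotin-like scaffold, rose with 1.33. Prkcz, an atypical protein kinase C of the PAR complex, fell, from 47.4 ± 0.880 CPM after PBS to 14.6 ± 2.52 CPM after TNF (log2 fold change -1.69 ± 0.14).

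Among 5 tested transmembrane genes, 2 were called higher and 2 lower. Cxadr, the coxsackievirus and adenovirus receptor, an adhesion molecule of the junction, rose from 92.4 ± 11.4 to 371 ± 39.3 CPM (log2 fold change 2.00 ± 0.13 with adjusted p 1.95e-08 in edgeR), and Igsf5, the gene of JAM4, rose with a log2 fold change of 2.30 ± 0.15. Esam, an adhesion molecule also found in endothelial cells, fell with a log2 fold change of -1.56. Crb1, called lower at -2.64, passed the filter on low counts only through the PBS libraries, with 46 counts after PBS and 9 after TNF. Of 16 tested genes of actomyosin and its control, 7 were called higher and 3 lower. The largest rises were those of Myl12a, a myosin light chain (log2 fold change 1.65), Ezr, the gene of ezrin (1.26), Rac1, a small GTPase (1.21), and Actn4, an actin cross-linker (1.16). Mylk, the gene of myosin light chain kinase, through which TNF is known to act on tight junctions, had a mean of 7.15 ± 3.11 CPM after PBS and 4.21 ± 1.05 CPM after TNF. Its groups overlapped, and it was not called (log2 fold change -0.76 ± 0.32, edgeR adjusted p 0.0555).

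EpCAM and the matriptase pathway act on claudin-7, which EpCAM binds and matriptase releases by cutting EpCAM. Of 7 tested genes on this list, 5 were called higher and 1 lower, with a median log2 fold change of 1.30. Epcam rose from 685 ± 107 to 1680 ± 194 CPM (log2 fold change 1.30 ± 0.16 with adjusted p 7.48e-06 in edgeR), and St14, the gene of matriptase, from 157 ± 6.58 to 576 ± 70.3 CPM (log2 fold change 1.88 ± 0.13 with adjusted p 3.04e-08 in edgeR). The tetraspanin genes Cd9 and Tspan8 rose with log2 fold changes of 2.62 and 1.41. In the neighbouring adherens junction, 9 of 12 tested genes were called higher and 2 lower, among them Nectin2 (log2 fold change 1.46), Cdh17 (1.32), Nectin4 (1.14), Ctnna1 (0.91) and Cdh1, the gene of E-cadherin (0.82), all 5 higher. All 8 desmosome genes were called, 6 higher and 2 lower, and the largest rises were those of Perp (log2 fold change 1.25), Dsg2 (1.23), Dsc2 (0.95) and Pkp3 (0.93). These counts stand beside the 59.6% of all tested genes that were called.

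**Figure D5:**
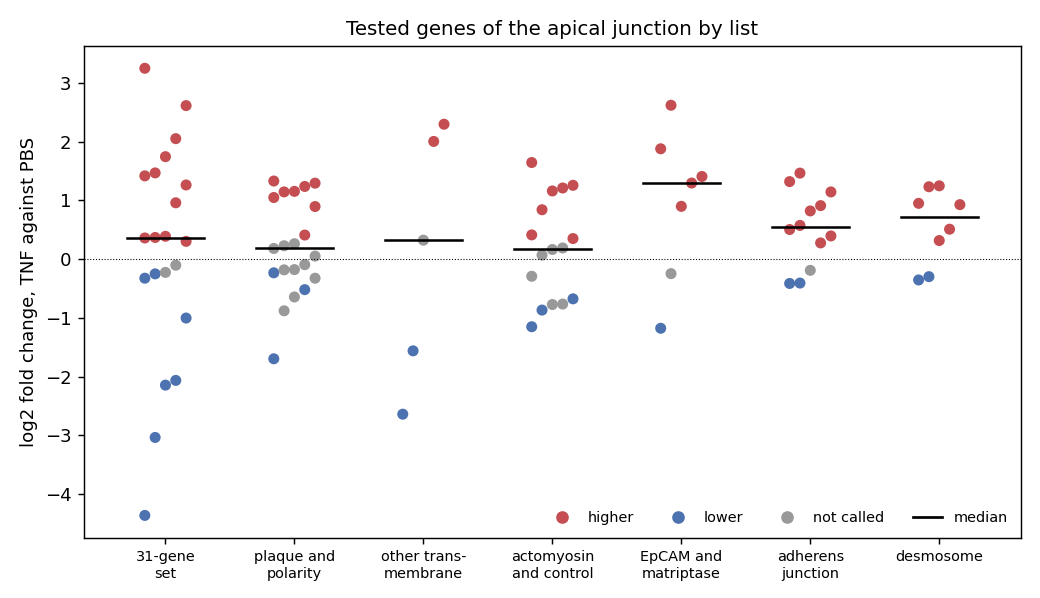
Log2 fold change, TNF against PBS, of each tested gene in the 31-gene set and in 6 further lists of apical junction genes, coloured by the call, with a line at the median. The 31-gene set has the widest spread, with Cldn4 at the top and Cldn6, drawn at the bound of its change, at the bottom.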

How the data were processed

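Total RNA of sorted PCs was sequenced on an Element AVITI with single-end reads. The authors deposited raw counts, whole numbers of reads per gene with 1 column per library. The submitters' processing notes name FastQC, Trimmomatic 0.39, STAR 2.7.10a, DESeq2 and the builds mm10 and mm39, with no role or order. The sources used here do not name the counting program, annotation or use of strand, so counts of overlapping genes are uncertain.

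Symbols, lengths and coordinates came from GENCODE M39 on GRCm39, which held 54749 (98.8%) of the 55414 identifiers, and promoter sequences from RefSeq on GRCm38.p6. Of the identifiers, 30842 had 0 counts in every library. TNF was compared with PBS in edgeR 4.0.16 (R 4.3.3) by a robust, two-sided quasi-likelihood test over all 7 libraries without covariates, with filterByExpr and TMM scaling, and p-values were adjusted over all 14329 genes. The pipeline was tested on simulated data. CPM was computed on TMM-scaled library sizes, and a fold against 0 counts uses a floor of 3 counts over the group. Intervals and floors cover counting error only. Depth was 15511455 to 19193721 counts per library, and libraries of a group differed beyond sampling noise (chi-square of 17.0 or more per degree of freedom).

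All 31 genes are named. Values in every library are given for Cldn1, Cldn2, Cldn3, Cldn4, Cldn7, Cldn8, Cldn15, Ocln, Tjp1, F11r and each other member called with at least 2-fold change. From the wider lists, claudins with a count, up to 4 called genes per list with the largest change, and Mylk, Epcam and Cdh1 are named, and 1 further gene is not reported here. One gene of the wider lists, Bves, was not matched. The members and lists were chosen with earlier results of these data known, and the lists of position along the intestine were drawn up after the data had been seen. Alternatives were DESeq2 1.42.0 and its size factors, scaling by total counts or without alpha-defensins and Lyz1, no filter, a filter of 1 CPM in 3 libraries, the replicate number as a block, a change of at least 2-fold, and leaving out each library. The canonical transcript length and the shares of claudins without each library were added after seeing the data. No batch is given in the labels.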

Additional observations from a re-analysis of the deposited data

Results flagged for a closer look

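For 49 genes, the lowest and the highest of the 4 TNF libraries were checked for a value far from the others. The ratio of its gap to the range was set against Dixon's limit for 4 values. It was over the limit for 3 of the 49 genes, where chance alone gives about 1 in 20. The PBS group of 3 was too small for this check. Cldn9 in TNF replicate 2 was at 0.825 CPM, with the other TNF libraries at 0.196 to 0.224 CPM, and all 4 were below the PBS libraries. Cldn2 in TNF replicate 1 was at 1014 CPM, with the other TNF libraries at 1377 to 1420 CPM, and all 4 were above the PBS libraries. Cldnd1, a claudin-domain gene outside the set, was at 28.9 CPM in TNF replicate 1, with the other TNF libraries at 38.6 to 40.1 CPM.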

How the results depend on the processing

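No log2 fold change of the 21 tested genes changed sign in any refit. Across 14 refits each, at an adjusted p under 0.05 with no limit on the fold (13 refits for Cldn6, which the filter of 1 CPM removed together with Cldn8), Cldn2, Cldn4, Cldn6, Cldn7, Cldn9, Cldn12, Cldn14, Cldn15, Cldn23, Lsr, F11r and Marveld3 stayed called. Among these, Cldn6, Cldn9 and Cldn14 passed the filter on low counts only through the PBS libraries, and their calls remain a description. The log2 fold change ran from 3.10 to 3.37 for Cldn4, from 2.44 to 2.83 for Cldn2 and from -1.16 to -0.89 for Cldn15. With a change of at least 2-fold, calls were 2065 higher and 2465 lower over all genes, 7 higher among the members, and 21 higher and 5 lower among the other junction genes. Leaving out each library in turn gave 4 to 7 members called lower, with 4 without PBS replicate 1 and 4 without PBS replicate 2. Over all genes these fits gave 3791 to 4455 called lower. With the canonical transcript length, the share of the claudin level was 27.1% after PBS and 11.8% after TNF for Cldn3, 8.48% and 27.2% for Cldn4, 34.4% and 32.0% for Cldn7, and 14.9% after PBS for Cldn15.

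The deviations of same-numbered libraries correlated at -0.30 to -0.03, and those of differently numbered libraries at -0.21 to 0.35. No pairing by replicate number was seen, but so few libraries cannot decide whether samples were paired or shared a batch. With the replicate block, 9 members were called higher and 4 lower, and 32 other junction genes higher and 7 lower, beside 3437 higher and 3630 lower of all 14205 genes tested in that fit. This fit leaves out TNF replicate 4, and Cldn3, Cldn8, Marveld2, Tjp1, Cgn and Pard3 were not called in it. The cause of the calls lost or gained was not tested. With no filter on low counts, Cldn18 and Jam2, not tested otherwise, were also called lower, and Pard3 was no longer called. The adjusted p values of that fit cannot be set beside those of the main fit. For genes with 0 counts the depth allows levels of up to 0.0243 CPM, as far as their reads could be assigned. This is uncertain for Cldn19, Cldn22 and Jam3, whose exons overlap other genes.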
